A study of Mus musculus with 6 samples.

Results

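The mRNAs of 10 genes that encode chains of laminin (*Lama1*, *Lama4*, *Lama5*, *Lamb1*, *Lamb2* and *Lamc1*), chains of collagen IV (*Col4a1* and *Col4a2*) and the nidogens (*Nid1* and *Nid2*) were followed in mouse podocytes (MPCs) kept in high glucose (HG) with or without fibroblast growth factor 1 (FGF1). The genes were found by symbol among 24469 loci in a table of FPKM, fragments per gene scaled to the length of its exons and to the mapped fragments of its library. Each of the 10 symbols stood in 1 locus. Laminins are cross-shaped trimers of an α, a β and a γ chain that polymerize at the cell surface, collagen IV forms a second, covalently linked network, and the nidogens bind both. In the glomerulus, podocytes and endothelial cells both contribute to the basement membrane between them, and as it matures the laminin chains α1 and β1 give way to α5 and β2, and the collagen IV chains α1 and α2 to α3, α4 and α5. Thickening of this membrane is a hallmark of diabetic nephropathy.

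RNA-Seq covered 6 libraries in 3 groups of 2. MPCs are a conditionally immortalized mouse podocyte line at passages 10 to 15, grown at 33 °C with 50 U/mL interferon gamma in 5.5 mM glucose on collagen I and differentiated for 10 days at 37 °C without interferon gamma. All cells were starved of serum for 12 h and then held in 25 mM glucose for 12 h, with D-mannitol named as the osmotic control. Before glucose, 1 group received 100 ng/mL wild-type FGF1 (rFGF1 WT) for 1 h, and another received 100 ng/mL rFGF1 ΔHBS, a variant with a weakened heparan sulfate binding site, for 1 h. The HG group had no pretreatment, so the added protein and the pretreatment step itself cannot be told apart. Libraries at normal glucose or with D-mannitol were not analysed here, so no response to HG was measured. Nothing in the labels says that the 2 libraries of a group came from separate cultures, and p-values then measure only the spread between these libraries, which may be technical.

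The libraries' FPKM added up to between 179594 (HG replicate 2) and 185168 (rFGF1 WT replicate 1), and they carry no totals of fragments. Ratios of low values to the HG replicate 1 library piled up at 1 value per library, the mark of single fragments, and gave depths of 0.974 for HG replicate 2, 0.974 and 0.985 under rFGF1 WT, and 1.01 and 0.985 under rFGF1 ΔHBS relative to that library. The libraries were thus close in depth.

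The labelled cell type was compared with its markers. Of 10 podocyte markers, 9 were matched, and 5 of them reached the mean of 1 FPKM needed for testing. The FPKM of the 9 summed to 170 and 163 in HG, 185 and 200 under rFGF1 WT, and 186 and 190 under rFGF1 ΔHBS, most of it from *Actn4* (83.2 to 106 FPKM) and *Cd2ap* (51.3 to 76.2 FPKM), which many cells express. *Synpo* and *Podxl*, more specific markers named after their values were seen, did not follow this sum, though neither passed the threshold. *Synpo*, which encodes the actin-binding protein synaptopodin, read 9.58 and 10.2 FPKM in HG, 5.45 and 4.01 FPKM under rFGF1 WT, and 4.84 and 6.83 FPKM under rFGF1 ΔHBS (log2 fold changes -0.94, adjusted p = 0.0787, and -0.69, adjusted p = 0.131). *Podxl*, which encodes podocalyxin, read 16.7 and 17.6 FPKM in HG, 15.8 and 15.5 FPKM under rFGF1 WT, and 14.8 and 15.8 FPKM under rFGF1 ΔHBS. In both, all 4 FGF1 libraries were below both HG libraries. Some markers that define podocytes were scarce. *Wt1*, a transcription factor of podocytes, was at 0.0731 and 0.0518 FPKM in HG and lower in all 4 FGF1 libraries (0.0104 to 0.0423 FPKM), and *Nphs1*, which encodes nephrin, between 0.618 and 0.942 FPKM. None of the 5 tested podocyte markers had an adjusted p under 0.05 in limma in any comparison, and an unadjusted p under 0.05 was found against HG for 2 of them under rFGF1 WT and 3 under rFGF1 ΔHBS, and for 0 between the FGF1 groups. Over all tested loci, 24.8% and 24.9% had one against HG and 4.87% between the FGF1 groups.

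Markers of other renal cells were present. Of 5 tubular markers, 3 were matched and tested, and their FPKM summed to 158 and 158 in HG, 115 and 118 under rFGF1 WT, and 109 and 122 under rFGF1 ΔHBS, with *Cdh16* the most abundant (68.4 to 96.2 FPKM). None of these 3 had an adjusted p under 0.05 in limma, while all 3 had an unadjusted p under 0.05 against HG with either protein, beside the 24.8% and 24.9% of all tested loci. Of 5 mesangial markers, 2 were tested and neither was past the threshold, though both had an unadjusted p under 0.05 against HG with either protein, in opposite directions. The log2 fold changes were -0.26 and -0.26 for *Pdgfrb* and 0.26 and 0.30 for *Gata3*, which was named after its values were seen. *Pdgfrb* (26.1 to 32.7 FPKM) made up most of a sum of 29.3 to 35.0 FPKM, with *Itga8* and *Ren1* at no more than 0.0526 FPKM. The 5 endothelial markers summed to at most 0.167 FPKM in any library. The 5 fibroblast markers, mostly *Col1a1*, summed to 3 and 3.02 FPKM in HG. Their sum was 2.17 and 2.43 FPKM under rFGF1 WT, and 2.55 and 2.41 FPKM under rFGF1 ΔHBS. Only *Col1a1* was tested, and it was not past the threshold in limma (log2 fold changes -0.29, adjusted p = 0.173, and -0.21, adjusted p = 0.278). Among 5 macrophage markers, summing to 60.9 to 71.2 FPKM, *Ptprc*, *Adgre1* and *Lyz2* were at no more than 0.0982 FPKM. The other two passed the threshold against HG, in opposite directions. *Csf1r*, which encodes a growth factor receptor of macrophages, read 9.56 and 10.7 FPKM in HG, 3.21 and 3.68 FPKM under rFGF1 WT, and 3.93 and 3.76 FPKM under rFGF1 ΔHBS (log2 fold changes -1.32, adjusted p = 0.0114, and -1.19, adjusted p = 0.0140). The adjusted p of *Csf1r* was 0.0510 with rFGF1 WT without HG replicate 2, and with rFGF1 ΔHBS it was 0.0583 to 0.0686 without any 1 library of HG or rFGF1 ΔHBS. *Cd68* shares its locus with the translation factor gene *Eif4a1* and cannot be read on its own, and the locus had log2 fold changes of 0.32 (adjusted p = 0.0496) and 0.37 (adjusted p = 0.0363), with adjusted p of 0.101 to 0.162 and 0.0755 to 0.126 without any 1 library. The part of the marker levels in the results that follow was not tested. In such bulk samples, fewer cells of a type and less RNA per cell cannot be told apart.

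The members spanned more than 3 orders of magnitude in FPKM, a scale per length on which genes can be set side by side. *Col4a1* was the highest by the mean of 6 libraries (102 FPKM, rank 221 of all 24469 loci), followed by *Col4a2* (89.5 FPKM), *Lamb1* (59.0 FPKM), *Lamc1* (46.5 FPKM), *Lama5* (45.3 FPKM), *Lamb2* (31.9 FPKM, in a locus merged with *Usp19*), *Lama1* (7.19 FPKM), *Nid2* (1.45 FPKM), *Nid1* (0.153 FPKM) and *Lama4* (0.0229 FPKM). In every group the ranges of *Lamc1* and *Lama5* overlapped. *Col4a1* and *Col4a2* overlapped in HG but not in the FGF1 groups, where *Col4a1* was the higher, and no other neighbours in the order overlapped in any group. The summed FPKM of all 10 members was 377 and 414 in HG, 371 and 374 under rFGF1 WT, and 358 and 402 under rFGF1 ΔHBS, ranges that overlapped only between HG and rFGF1 ΔHBS and between the FGF1 groups.

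**Figure D1:**
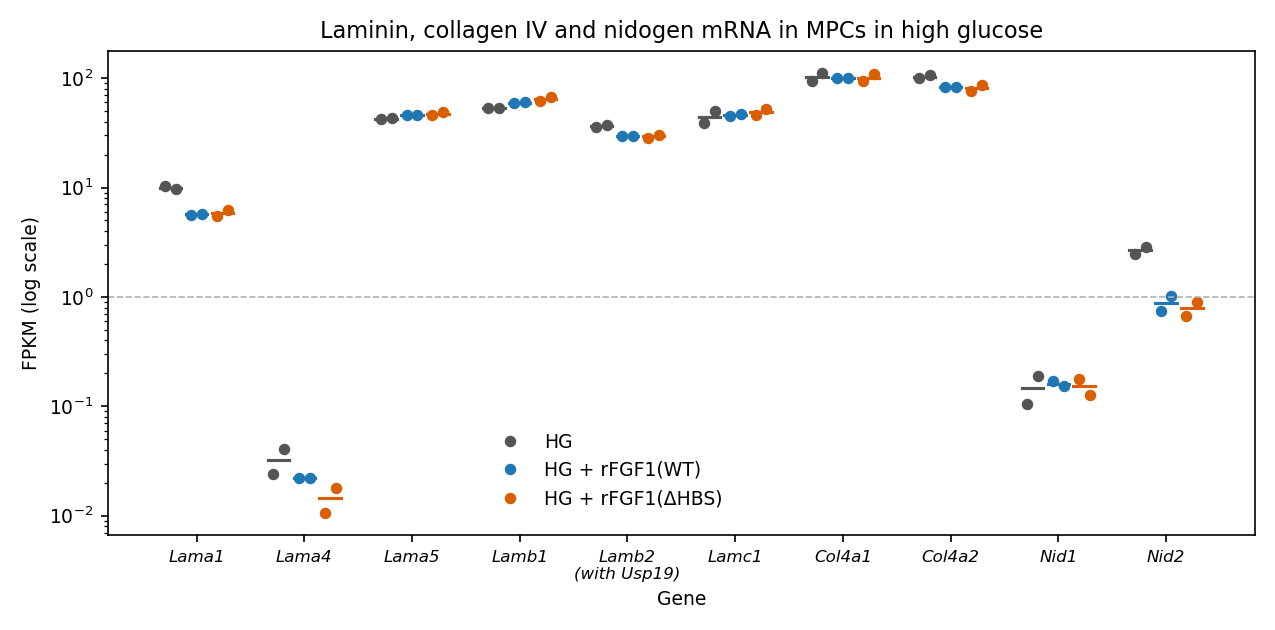
FPKM (log axis) of the 10 genes in each of the 6 libraries, as points, with the mean of each group of 2 as a bar, and a dashed line at 1 FPKM, the mean needed for testing. *Lama1* and *Nid2* lie lower in all 4 FGF1 libraries than in both HG libraries, and *Lama4* and *Nid1* lie below 1 FPKM in all 6.

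For testing, log2(FPKM + 1) of the 10562 loci with a mean of at least 1 FPKM was fitted with limma in all 6 libraries, with 3 residual degrees of freedom, and p-values were adjusted over all these loci by Benjamini-Hochberg. Log2 fold changes are differences on this log2(FPKM + 1) scale, and for low genes they are smaller than the change in FPKM itself. Of the 10 members, 8 were tested, and *Lama4* and *Nid1* were below the filter.

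Against HG, rFGF1 WT gave 2 of the 8 tested members an adjusted p under 0.05, *Lama1* and *Nid2*, while 6.19% of all tested loci (654) had one. Both were lower, as were 2.94% of all tested loci. rFGF1 ΔHBS also gave 2 of 8, the laminin gene *Lama1* and the nidogen gene *Nid2*, against 6.26% of all tested loci (661), both of them lower, against 2.89%. The comparisons share the HG libraries, so the second is no independent repeat of the first. The filter kept *Nid2* only through its HG values, so its count carries no weight, and without it 1 of 7 tested members was past the threshold in each comparison. At a change of at least 2-fold as well, 0 of 8 members passed with rFGF1 WT (1.01% of all tested loci, and 5 of 8 members at an unadjusted p under 0.05 against 24.8% of the loci) and 1 of 8, *Nid2*, with rFGF1 ΔHBS (0.899% of the loci, and 5 of 8 members at an unadjusted p under 0.05 against 24.9%). The libraries of 6 of 8 members did not overlap with those of HG under rFGF1 WT, where 58.2% of all tested loci did not overlap. Of the 6 members, 4 were lower and 2 higher, against 34.1% and 24.1% of all tested loci. Under rFGF1 ΔHBS it was also 6 of 8, where 57.3% of all tested loci did not overlap. Again 4 were lower and 2 higher, against 32.9% and 24.4%. With 8 members, nothing about them is read from these shares. The median log2 fold change of the 8 members was -0.17 with either protein, beside a median of -0.04 over all tested loci in each comparison. This median rested on *Nid2* and on single libraries. At a mean of at least 5 FPKM, which leaves out only *Nid2* among the 8, it was -0.03 with either protein. Without 1 library it ranged from -0.25 to -0.08 with either protein, at -0.08 and -0.09 without HG replicate 2 and at -0.08 for rFGF1 ΔHBS without rFGF1 ΔHBS replicate 1.

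**Figure D2:**
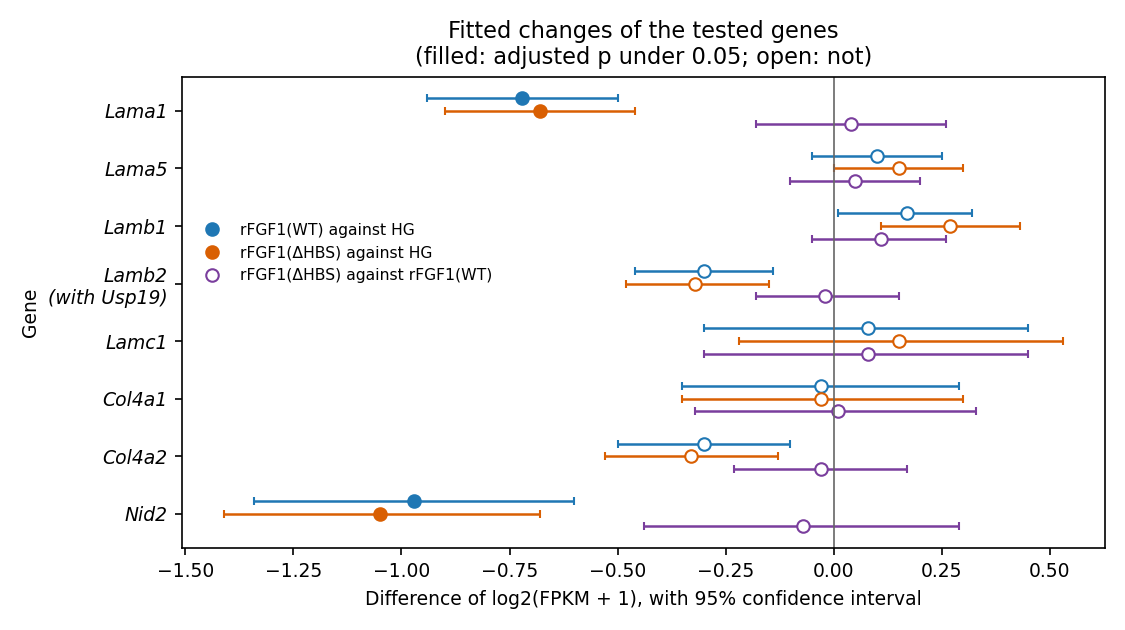
Difference of log2(FPKM + 1) for the 8 tested genes in the 3 comparisons, with 95% confidence intervals from limma, where filled points have an adjusted p under 0.05. *Lama1* and *Nid2* are filled against HG with both proteins, and no gene is filled between the proteins. The filter kept *Nid2* only through its HG values, so its filled points carry no weight.

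Among the laminin α chains, *Lama5* was the most abundant in every library and, of the *Lama1* and *Lama5* loci that were tested, *Lama1* fell. *Lama1*, on chromosome 17 of GRCm38 from 67697259 to 67822647 on the + strand, encodes α1, the α chain of early embryonic and of some adult epithelial basement membranes. It read 10.3 and 9.70 FPKM in HG, 5.65 and 5.70 FPKM under rFGF1 WT, and 5.48 and 6.27 FPKM under rFGF1 ΔHBS. All 4 FGF1 libraries were below both HG libraries, and the FGF1 groups overlapped. The group means were 10.0 ± 0.438 FPKM (SD, n = 2) in HG, 5.68 ± 0.038 FPKM (SD, n = 2) for rFGF1 WT and 5.87 ± 0.558 FPKM (SD, n = 2) for rFGF1 ΔHBS, so that the mean fell by 43.3% under rFGF1 WT and fell by 41.3% under rFGF1 ΔHBS. In limma this was a log2 fold change of -0.72 (standard error 0.0812, Benjamini-Hochberg adjusted p = 0.0232) for rFGF1 WT and of -0.68 (adjusted p = 0.0255) for rFGF1 ΔHBS. The call rested on the 3 residual degrees of freedom. Fits without any 1 of the 6 libraries gave adjusted p of 0.0511 to 0.105 with rFGF1 WT and 0.0646 to 0.112 with rFGF1 ΔHBS, and fits of only the 4 libraries compared gave 0.0515 and 0.0706.

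*Lama5*, on chromosome 2 from 180176373 to 180225859 on the - strand, encodes α5, the α chain of the mature glomerular basement membrane. It read 42.0 and 43.3 FPKM in HG, 46.0 and 45.6 FPKM under rFGF1 WT, and 45.6 and 49.2 FPKM under rFGF1 ΔHBS. The FGF1 libraries were the higher ones without overlap, but neither log2 fold change against HG, 0.10 (adjusted p = 0.353) and 0.15 (adjusted p = 0.204), passed the threshold. *Lama4*, on chromosome 10 from 38965515 to 39110188, encodes α4, typical of endothelial and muscle basement membranes, and was too low to test. It read 0.0241 and 0.0406 FPKM in HG, 0.0222 and 0.0219 FPKM under rFGF1 WT, and 0.0106 and 0.0181 FPKM under rFGF1 ΔHBS, with all 4 FGF1 libraries below both HG libraries. *Lama1* made up 19.7% and 18.3% of the summed FPKM of these 3 α chains in HG, 10.9% and 11.1% under rFGF1 WT, and 10.7% and 11.3% under rFGF1 ΔHBS. The sum itself was 52.4 and 53.0 FPKM in HG, 51.6 and 51.4 FPKM under rFGF1 WT, and 51.1 and 55.5 FPKM under rFGF1 ΔHBS. Within a library the ratio of *Lama1* to *Lama5* was 0.246 and 0.224 in HG, 0.123 and 0.125 under rFGF1 WT, and 0.12 and 0.127 under rFGF1 ΔHBS. The smallest p of an exact permutation test of 2 libraries against 2 is 0.333, so ratios are given without a test.

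The study's own real-time PCR primers for *Lama1* are shown because they mark which stretch of this mRNA it measured by that method, whose values were not analysed here. Both matched the GENCODE transcript of *Lama1* once, in exon 2 of 63, and enclosed 123 bases. They are given 5′ to 3′ with their places in GRCm38.
Lama1-F (chr17:67716737-67716755, + strand): cagcgccaatgctacctgt
Lama1-R (chr17:67716837-67716859, - strand): ggattcgtactgttaccgtcaca

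Of the laminin β chains, β1 has a locus of its own and β2 does not, and neither locus was past the threshold. *Lamb1*, on chromosome 12 from 31265234 to 31329644 on the + strand, encodes β1, the more widespread β chain. It read 53.3 and 52.8 FPKM in HG, 58.9 and 60.4 FPKM under rFGF1 WT, and 61.5 and 67.2 FPKM under rFGF1 ΔHBS. The 3 groups did not overlap. The log2 fold change against HG was 0.17 (adjusted p = 0.187) for rFGF1 WT and 0.27 (adjusted p = 0.0787) for rFGF1 ΔHBS, neither past the threshold.

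*Lamb2* encodes β2, the chain whose loss causes congenital nephrotic syndrome in humans. Its locus in the table merges it with *Usp19*, which encodes a ubiquitin-specific protease, and the values cannot be divided between them. *Lamb2* runs on chromosome 9 from 108479736 to 108490530 on the + strand, and *Usp19* follows on the same strand after 71 bases, from 108490602 to 108502337. Of the 27 transcripts in the locus, 7 are annotated to *Lamb2* and 16 to *Usp19*, and 4 were assembled by the authors. The merged locus read 35.9 and 37.5 FPKM in HG, 29.7 and 29.5 FPKM under rFGF1 WT, and 28.1 and 30.5 FPKM under rFGF1 ΔHBS. All 4 FGF1 libraries were below HG, with log2 fold changes of -0.30 (adjusted p = 0.0722) for rFGF1 WT and -0.32 (adjusted p = 0.0631) for rFGF1 ΔHBS that did not pass the threshold. The ratio of *Lamb1* to the *Lamb2* locus was 1.49 and 1.41 in HG, 1.98 and 2.04 under rFGF1 WT, and 2.19 and 2.20 under rFGF1 ΔHBS, 3 groups that did not overlap. Their sum was 89.2 and 90.3 FPKM in HG, 88.6 and 89.9 FPKM under rFGF1 WT, and 89.7 and 97.6 FPKM under rFGF1 ΔHBS, and there the groups overlapped.

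*Lamc1*, on chromosome 1 from 153218922 to 153332786 on the - strand, encodes γ1, the γ chain that most laminins share. It read 38.7 and 49.7 FPKM in HG, 45.1 and 47.4 FPKM under rFGF1 WT, and 46.2 and 51.7 FPKM under rFGF1 ΔHBS. The HG libraries lay further apart (44.2 ± 7.79 FPKM, SD, n = 2) than the group means. The log2 fold change was 0.08 (adjusted p = 0.774) for rFGF1 WT and 0.15 (adjusted p = 0.548) for rFGF1 ΔHBS, and without HG replicate 1 it was -0.10 and -0.02.

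Collagen IV was represented by its α1 and α2 chains, which join in the most widespread collagen IV trimer. *Col4a1*, on chromosome 8 from 11198423 to 11312826 on the - strand, read 94.0 and 112 FPKM in HG, 101 and 100 FPKM under rFGF1 WT, and 93.3 and 109 FPKM under rFGF1 ΔHBS. The groups overlapped throughout. The log2 fold change was -0.03 with rFGF1 WT (adjusted p = 0.899, 95% interval -0.35 to 0.29) and -0.03 with rFGF1 ΔHBS (adjusted p = 0.922, 95% interval -0.35 to 0.30), and median-ratio scaling turned both to 0.02. *Col4a2*, on the same chromosome from 11312805 to 11449287 on the + strand, read 100 and 106 FPKM in HG, 83.4 and 83.8 FPKM under rFGF1 WT, and 76.9 and 86.7 FPKM under rFGF1 ΔHBS. All 4 FGF1 libraries were below both HG libraries. The log2 fold change of -0.30 (adjusted p = 0.102) for rFGF1 WT and -0.33 (adjusted p = 0.0834) for rFGF1 ΔHBS missed the threshold.

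Within a library the ratio of *Col4a1* to *Col4a2* was 0.936 and 1.06 in HG, 1.21 and 1.19 under rFGF1 WT, and 1.21 and 1.26 under rFGF1 ΔHBS. Every FGF1 library had the higher ratio. A ratio shows unequal values of the chains, not which of them moved. Not every ratio between members set the groups apart. That of *Lama5* to *Lamc1* was 1.09 and 0.871 in HG, 1.02 and 0.962 under rFGF1 WT, and 0.988 and 0.951 under rFGF1 ΔHBS, and overlapped in all 3 comparisons.

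**Figure D3:**
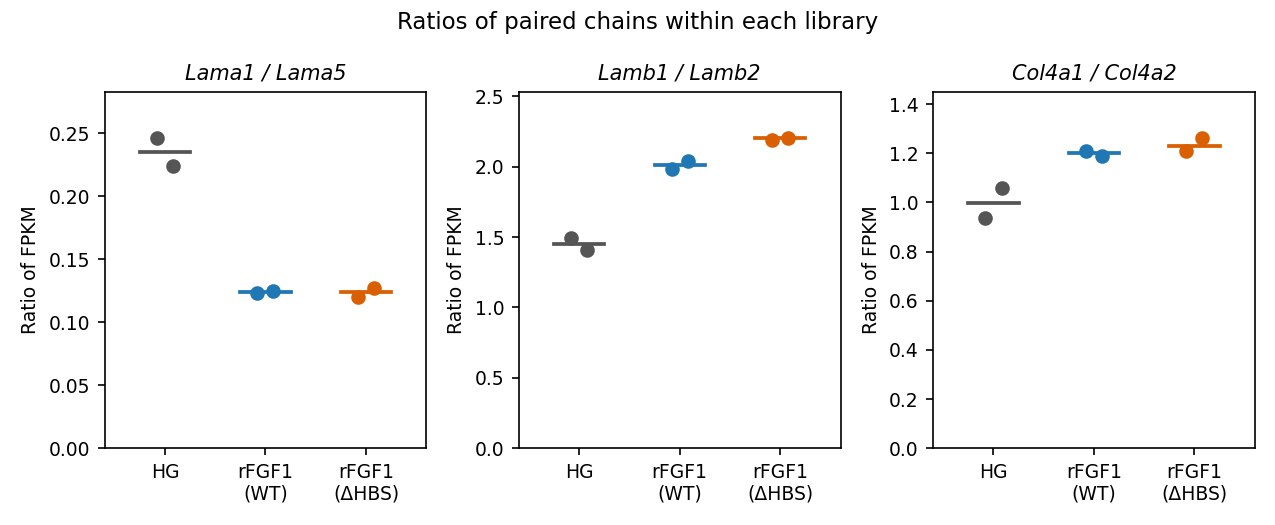
Ratio of FPKM of *Lama1* to *Lama5*, *Lamb1* to the merged *Lamb2* locus and *Col4a1* to *Col4a2* within each library (points), with the mean of each group of 2 as a bar and axes from 0. In each of these 3 ratios both HG libraries lie outside the range of the 4 FGF1 libraries, as in 0.246 and 0.224 against 0.12 to 0.127 for *Lama1* to *Lama5*. The ratio of *Lama5* to *Lamc1*, not drawn, overlapped in all 3 comparisons. Of single tested loci, 58.2% (rFGF1 WT) and 57.3% (rFGF1 ΔHBS) did not overlap with HG.

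The collagen IV genes stand head to head, and the promoter of *Col4a1* is shown because it takes in the start of *Col4a2*, and because the ratio of these genes was higher in every FGF1 library than in HG. RefSeq promoter windows (GRCm38.p6, 250 bases before to 50 after the start) were matched for 6 of the 10 members, *Lama5*, *Lamb1*, *Lamb2*, *Col4a1*, *Col4a2* and *Nid1*. The first transcribed bases of *Col4a1* and *Col4a2* lie 21 bases apart, and their windows share 78 bases, in capitals here on the strand of *Col4a1*.
Col4a1 promoter (chr8:11312777-11313076, - strand): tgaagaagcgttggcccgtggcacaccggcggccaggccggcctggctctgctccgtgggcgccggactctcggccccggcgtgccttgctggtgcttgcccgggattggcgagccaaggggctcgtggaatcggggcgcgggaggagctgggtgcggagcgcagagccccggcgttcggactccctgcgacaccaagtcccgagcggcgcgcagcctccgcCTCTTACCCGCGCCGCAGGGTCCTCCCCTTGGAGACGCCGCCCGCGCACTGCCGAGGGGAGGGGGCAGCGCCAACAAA

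The *Col4a1* window is 74.0% G or C and the *Col4a2* window (chr8:11312555-11312854, + strand) 73.7%, where the median of all 32851 windows is 52.7%. Motifs were searched on both strands. The GC box GGGCGG was found 1 time in the *Col4a1* window, 3 times in that of *Col4a2*, 4 times in that of *Lama5*, 2 times in that of *Lamb1*, 1 time in that of *Nid1* and 0 times in that of *Lamb2*, and 35.7% of all windows hold it. The CCAAT box CCAAT was found 1 time each in those of *Col4a1*, *Col4a2*, *Lamb1* and *Nid1*, 0 times in those of *Lama5* and *Lamb2*, and in 37.4% of all windows. The ETS motif CCGGAAG (8.86% of all windows) and the AP-1 motif TGANTCA (7.81%) are not in the letters of any of the 6 windows. A match is a description of letters, not a site in use.

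The nidogens were the scarcest members beside *Lama4*. *Nid2*, on chromosome 14 from 19751265 to 19811787 on the + strand, encodes nidogen-2, which links laminin to collagen IV. It read 2.49 and 2.87 FPKM in HG, 0.736 and 1.03 FPKM under rFGF1 WT, and 0.667 and 0.903 FPKM under rFGF1 ΔHBS. All 4 FGF1 libraries were below both HG libraries, and the FGF1 groups overlapped. The group means were 2.68 ± 0.264 FPKM (SD, n = 2), 0.881 ± 0.206 FPKM (SD, n = 2) and 0.785 ± 0.167 FPKM (SD, n = 2), so that the mean fell by 67.1% under rFGF1 WT and fell by 70.7% under rFGF1 ΔHBS. The log2 fold change was -0.97 (standard error 0.136, adjusted p = 0.0355) for rFGF1 WT and -1.05 (adjusted p = 0.0302) for rFGF1 ΔHBS. Because the filter kept *Nid2* only through its HG values, these adjusted p carry no weight as support for a fall. Leaving out any 1 of the 6 libraries raised the adjusted p to 0.0724 to 0.123 and 0.0596 to 0.110, fits without the filter to 0.0819 and 0.0682, and fits of only the 4 libraries compared to 0.0708 and 0.0591. *Nid1*, on chromosome 13 from 13437551 to 13512269 on the + strand, encodes the related nidogen-1 and lay between 0.105 and 0.189 FPKM, with overlapping groups and no test.

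Between the proteins, the question was whether the mutant acted differently from rFGF1 WT on these genes. With rFGF1 ΔHBS against rFGF1 WT, 0 of the 8 tested members had an adjusted p under 0.05 in limma, where 0.549% of all tested loci (58) had one, and 0 of 8 had an unadjusted p under 0.05, against 4.87%. The libraries of 1 of 8 members did not overlap, against 34.5% of all tested loci. This was *Lamb1*, with a log2 difference of 0.11 (adjusted p = 0.905). The difference was 0.04 for *Lama1* (95% interval -0.18 to 0.26), -0.07 for *Nid2* (95% interval -0.44 to 0.29) and -0.03 for *Col4a2* (95% interval -0.23 to 0.17). A p that misses the threshold does not show that the proteins act alike. For *Nid2* the interval leaves room for a difference of 0.44 on the log2(FPKM + 1) scale. At its low level the relative difference in FPKM itself would be larger.

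The members were chosen by gene family, and features that most of them share are given as a description only. The deposited table places 8 of the 10, the laminin and collagen IV genes, in both the KEGG ECM-receptor interaction and PI3K-Akt pathways, and *Nid1* and *Nid2* in neither. Their longest transcripts in the table are long, from 4876 bases for *Nid2* to 11388 bases in 79 exons for *Lama5*, and 9 of 10 have at least 5000 bases. The level of long transcripts as a class was read in each library. The median deviation of log2(FPKM + 1) from the mean of the 6 libraries, over the 2375 tested loci of at least 5000 bases, was 0.03 and 0.05 in HG, -0.04 and -0.02 under rFGF1 WT, and 0.01 and 0.01 under rFGF1 ΔHBS. Over the 2350 loci under 2000 bases it was 0.02 and 0.01, 0.04 and -0.01, and -0.01 and -0.02. Over all tested loci with a length it was 0.03 and 0.04 in HG, 0.00 and -0.01 under rFGF1 WT, and 0.00 and 0.00 under rFGF1 ΔHBS. The long class thus lay close to all loci in HG, below them in both rFGF1 WT libraries and slightly above them under rFGF1 ΔHBS. The part of transcript length in the results was not tested.

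Pattern likeness was measured by Pearson's r of log2(FPKM + 1) over the 6 libraries, as a description of libraries that fall in 3 groups. The loci most like *Lama1* among 10271 compared were *Myl6b* (r = 0.999), which encodes a myosin light chain, *Ddr1* (r = 0.999) and *Fras1* (r = 0.998). Those most like *Col4a1* were *Nr2c1* (r = 0.981), which encodes a nuclear receptor, *Cachd1* (r = 0.971) and *Tns2* (r = 0.963), which encodes a tensin of focal adhesions.

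The remaining laminin and collagen IV chains were nearly silent except for *Col4a5*. Of 9 other chain genes, 1 was tested. *Col4a5*, which encodes the α5 chain of the mature glomerular collagen IV, read 43.2 and 45.4 FPKM in HG, 41.2 and 40.2 FPKM under rFGF1 WT, and 40.3 and 44.0 FPKM under rFGF1 ΔHBS, with log2 fold changes of -0.12 (adjusted p = 0.334) and -0.07 (adjusted p = 0.540). Its partners *Col4a3* and *Col4a4* were at no more than 0.0649 FPKM. *Lamb3*, the next highest of these chains, lay between 0.425 and 0.623 FPKM.

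Of 18 other basement membrane genes, 10 were tested, and with either protein 2 fell and 8 were not past the threshold, where 2.94% and 2.89% of all tested loci were lower at an adjusted p under 0.05, with median log2 fold changes of -0.10 and -0.16 beside -0.04 over all tested loci. *Ntn4* encodes netrin-4, which binds laminin γ chains. It read 33.3 and 33.8 FPKM in HG, 17.5 and 17.2 FPKM under rFGF1 WT, and 17.7 and 18.5 FPKM under rFGF1 ΔHBS, a log2 fold change of -0.92 (adjusted p = 0.00661) and -0.86 (adjusted p = 0.00881). Fits without any 1 library kept *Ntn4* under 0.05, at 0.0252 to 0.0427 and 0.0338 to 0.0475. *Fras1*, which encodes a matrix protein under epithelia, read 8.21 and 8.11 FPKM in HG against 5.31 and 5.31 FPKM under rFGF1 WT and 5.19 and 5.62 FPKM under rFGF1 ΔHBS (log2 fold changes -0.54, adjusted p = 0.0244, and -0.52, adjusted p = 0.0263). Fits without 1 library gave *Fras1* 0.0546 to 0.110 and 0.0706 to 0.115. The most abundant gene of the list by its mean was *Sparc*, whose product binds collagen (156 to 212 FPKM), followed by *Col18a1*, a collagen with heparan sulfate chains (121 to 151 FPKM), and *Hspg2*, which encodes perlecan (131 to 150 FPKM), whose means over 6 libraries were both 139 FPKM. None of these was past the threshold in limma. *Hspg2* was named after its values were seen.

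Of 22 genes for the modification, folding, export and cross-linking of collagen, 17 were tested. With rFGF1 WT 1 rose, 1 fell and 15 were not past the threshold, and with rFGF1 ΔHBS 1 fell and 16 were not, where 6.19% and 6.26% of all tested loci were past it in either direction, with medians of -0.02 and 0.00. *P4ha2*, a catalytic subunit of collagen prolyl 4-hydroxylase, read 8.08 and 8.90 FPKM in HG, 5.20 and 5.56 FPKM under rFGF1 WT, and 5.87 and 5.52 FPKM under rFGF1 ΔHBS (log2 fold changes -0.57, adjusted p = 0.0323, and -0.50, adjusted p = 0.0413). *Colgalt1*, which adds galactose to collagen, read 16.7 and 15.7 FPKM in HG, 25.6 and 24.4 FPKM under rFGF1 WT, and 20.2 and 17.7 FPKM under rFGF1 ΔHBS. Its log2 fold change was 0.60 (adjusted p = 0.0343) for rFGF1 WT and 0.21 (adjusted p = 0.221) for rFGF1 ΔHBS, and the difference of -0.39 between the proteins had an adjusted p of 0.506. Fits without 1 library gave adjusted p of 0.0773 to 0.128 and 0.0864 to 0.139 for *P4ha2*, and 0.0525 to 0.135 for *Colgalt1* with rFGF1 WT. The most abundant genes here, the collagen chaperone *Serpinh1* (141 to 233 FPKM) and *P4hb* (163 to 180 FPKM), were not past the threshold.

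Of 14 receptor genes for laminin and collagen IV, 11 were tested, and with either protein 3 rose, 1 fell and 7 were not past the threshold, where 3.26% and 3.37% of all tested loci were higher and 2.94% and 2.89% lower, with medians of -0.01 and 0.00. *Itga3* and *Itgb1* encode integrin α3β1, the main laminin receptor of podocytes. *Itga3* read 65.1 and 64.2 FPKM in HG, 154 and 153 FPKM under rFGF1 WT, and 146 and 160 FPKM under rFGF1 ΔHBS, a log2 fold change of 1.23 (adjusted p = 0.00484) and 1.23 (adjusted p = 0.00510), and it stayed under 0.05 in fits without any 1 library (0.0162 to 0.0357 and 0.0199 to 0.0380). *Itgb1*, the most abundant receptor gene, read 193 and 187 FPKM in HG against 237 and 231 FPKM and 234 and 224 FPKM (log2 fold changes 0.30, adjusted p = 0.0404, and 0.26, adjusted p = 0.0494). *Sdc4*, a heparan sulfate proteoglycan of the cell surface, read 77.5 and 84.0 FPKM in HG against 123 and 115 FPKM and 114 and 122 FPKM (log2 fold changes 0.55, adjusted p = 0.0291, and 0.55, adjusted p = 0.0302). *Ddr1*, a receptor tyrosine kinase that collagen activates, was the one that fell, from 36.8 and 33.0 FPKM in HG to 16.5 and 16.4 FPKM under rFGF1 WT and 15.8 and 19.6 FPKM under rFGF1 ΔHBS (log2 fold changes -1.04, adjusted p = 0.0235, and -0.95, adjusted p = 0.0280). Fits without 1 library gave *Itgb1* 0.0810 to 0.151 and 0.103 to 0.166, *Sdc4* 0.0691 to 0.116 and 0.0661 to 0.112, and *Ddr1* 0.0425 to 0.107 and 0.0518 to 0.115. For *Ddr1* with rFGF1 WT, leaving out either rFGF1 ΔHBS library kept the adjusted p under 0.05 (0.0427 and 0.0425), and leaving out any 1 library of HG or rFGF1 WT did not.

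Of 7 fibrillar collagen genes, 3 were tested and none was past the threshold in limma with either protein, with 1 and 0 at an unadjusted p under 0.05 (24.8% and 24.9% of all tested loci) and median log2 fold changes of -0.21 and -0.08. The most abundant were *Col5a1* (20.4 to 22.9 FPKM) and *Col5a2* (17.6 to 22.5 FPKM). In rFGF1 ΔHBS against rFGF1 WT, none of the 42 tested genes of these 5 further lists had an adjusted p under 0.05 in limma, and 1 had an unadjusted p under 0.05, beside 4.87% of all tested loci.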

How the data were processed

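Each of 6 libraries was assigned to its group by its labels. The authors isolated poly(A) RNA, sequenced paired ends and deposited FPKM, which their methods say were summarized with edgeR. The submitters' processing notes name HISAT2 2.0, StringTie 1.3.0, Bowtie 0.12.2 and the build mm8 without their roles, and the table gives no coordinates, so positions come from the GENCODE M21 annotation of GRCm38, which held 99.6% of the Ensembl transcripts listed in the table. Whether counting used strand is not given in the sources used here, so fragments of *Col4a1* and *Col4a2*, whose starts overlap, or of loci that merge several genes may be divided in ways the table does not show.

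Values of log2(FPKM + 1) were fitted with limma 3.58.1 (lmFit, contrasts and eBayes with a trend) in R 4.3.3 for 3 comparisons over 10562 loci, those averaging at least 1 FPKM, with Benjamini-Hochberg adjustment and thresholds of 0.05 and 2-fold. The fit was tested on simulated data. Relative depth was read at the most frequent ratio among loci under 0.3 FPKM. Tables and plots used matplotlib 3.10.9, pandas 2.3.3 and numpy 2.4.6 in Python 3.11.15.

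Members and lists were chosen with earlier results of these data known. Named genes were the members, loci of the other lists with an adjusted p under 0.05 in any comparison, the 2 of each list with the highest mean FPKM, and the 3 most like *Lama1* and the most abundant member. Markers used to check the cell type were named by list. Single values of some podocyte markers are not reported here. The 15 alternatives were rows summed by symbol, quantile normalization, median-ratio scaling, a replicate block, robust empirical Bayes, fits of only the 4 libraries compared, a pseudocount of 0.1, no filter, a filter at a mean of 5 FPKM, and leaving out each of the 6 libraries. Real-time PCR, protein and mouse experiments were not analysed here.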

Additional observations from a re-analysis of the deposited data

How the results depend on the processing

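Counts of calls depended on the spread that 2 libraries per group can give. Against HG, the 2 members past an adjusted p of 0.05 with rFGF1 WT and the 2 with rFGF1 ΔHBS became 1 and 1 without the filter or with a filter at a mean of 5 FPKM, and 0 and 0 in fits of only the 4 libraries compared or without any 1 library (0 to 0). The 1 member also past 2-fold with rFGF1 ΔHBS became 0 in each of these fits, and a pseudocount of 0.1 gave 1 with rFGF1 WT in place of 0. A mean of 5 FPKM leaves *Nid2* out. The median log2 fold change of the members, -0.17 with either protein, was -0.02 and -0.03 without the filter, which adds *Lama4* and *Nid1*, and -0.03 and -0.03 at a mean of 5 FPKM.

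Over all tested loci, the 654 and 661 calls against HG became 407 and 386 without the filter, 170 and 189 with only the 4 libraries compared, and 134 to 195 and 118 to 198 without 1 library. With 2-fold, 107 became 69 at a mean of 5 FPKM (rFGF1 WT) and 95 became 151 with a pseudocount of 0.1 (rFGF1 ΔHBS). Between the proteins, 58 calls (37 with 2-fold) became 31 (18) at a mean of 5 FPKM and 43 to 107 (43 to 103) without 1 library. Fits with fewer libraries have fewer residual degrees of freedom, and a library left alone in its group is assumed to vary like the others. Beyond this the cause was not tested.

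A replicate block gave 0 members with either protein against HG, 0 also past 2-fold, and 41, 39 and 6 calls in the 3 comparisons (39, 36 and 6 with 2-fold). Deviations from the group means of libraries with the same number correlated at -0.02, 0.10 and -0.05 over 10562 loci. They thus showed little shared deviation over the loci as a whole. Whether they share a culture or a run is not in the labels, and these correlations cannot decide it. Under this block *Ntn4* had adjusted p of 0.0515 and 0.0610 against HG, and *Itga3* 0.0433 and 0.0456.

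In each comparison, signs changed only for members that were not past the threshold in that comparison. Median-ratio scaling gave *Col4a1* 0.02 and 0.02 against HG and -0.01 between the proteins, and quantile normalization gave *Lamb2* 0.00 between the proteins. Without 1 library, the log2 fold change with rFGF1 WT against HG ranged from -0.10 to 0.25 for *Lamc1* and -0.16 to 0.10 for *Col4a1*, and that with rFGF1 ΔHBS from -0.02 to 0.33 for *Lamc1* and -0.15 to 0.10 for *Col4a1*. Between the proteins it ranged from -0.04 to 0.12 for *Lama1*, -0.01 to 0.10 for *Lama5*, -0.07 to 0.04 for *Lamb2*, 0.00 to 0.16 for *Lamc1*, -0.11 to 0.12 for *Col4a1*, -0.12 to 0.05 for *Col4a2* and -0.19 to 0.04 for *Nid2*. In the 15 alternatives *Lama1* stayed below HG with both proteins. So did *Nid2* in the 14 that tested it, but its high HG values had also carried it past the main filter.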
